A study of Mus musculus with 354 samples.

Results

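The rows of 10 genes of lactate transport and glycolysis were followed among the 55367 genes counted in single cells of the neonatal mouse cochlea. The genes were taken by name: the monocarboxylate transporters *Slc16a4*, *Slc16a1* and *Slc16a3*, the glucose transporter *Slc2a1*, the hexokinases *Hk1* and *Hk2*, pyruvate kinase *Pkm*, the lactate dehydrogenase subunits *Ldha* and *Ldhb*, and the pyruvate dehydrogenase kinase *Pdk1*. The set was chosen by the plate and cell counts of these same data, in which *Slc16a4* was known to be higher in cells with active ERBB2, so the differences between genotypes given for the 10 genes are descriptions without a test. All 10 were present in the counts and all 10 passed the filter on low counts.

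CA-ERBB2 pups carried Fgfr3-iCre, ROSA-floxed-rtTA/GFP and the TetON-CAERBB2 transgene, which encodes a receptor that signals without ligand. Control pups were their littermates, which had Fgfr3-iCre as well as ROSA-floxed-rtTA/GFP but not TetON-CAERBB2. Tamoxifen (75 mg/kg) was injected on postnatal days 0 and 1 to switch on GFP and rtTA in cells with *Fgfr3* promoter activity, doxycycline (100 mg/kg) on day 2 to switch on the transgene, and GFP+ cells were sorted on day 3. The protocol describes these injections for the pups without separating genotypes, and the treatment field is filled in for CA-ERBB2 cells. Each genotype comprised 3 plates of 59 cells, each plate was taken as 1 sort of pooled cochleae and as 1 replicate, and the spread between plates may be partly technical.

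Glucose enters cells through transporters such as the product of *Slc2a1*, is trapped by hexokinases and is broken down to pyruvate, with pyruvate kinase catalysing the last step. Lactate dehydrogenase interconverts pyruvate and lactate as a tetramer of LDHA and LDHB subunits, of which LDHA is known to favour lactate formation and LDHB the reverse direction. Proton-coupled monocarboxylate transporters of the SLC16 family carry lactate and pyruvate across the plasma membrane with the help of the chaperones basigin (*Bsg*) and embigin (*Emb*). *Slc16a1* encodes a widely expressed transporter, *Slc16a3* a transporter typical of lactate-exporting glycolytic cells, and *Slc16a4* a family member whose substrates are less well defined.

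*Slc16a4* and *Slc16a1* lie on the same strand of chromosome 3 of GRCm38, at chr3:107291230-107312115 and chr3:104638668-104658462. The 250 bases upstream of the RefSeq start sites were read for all 10 genes (build GRCm38.p6). Those of *Slc16a4* are shown because its level set it apart from the other transporters, those of *Slc16a1* as the leading transporter of Control cells, and those of *Hk2* and *Ldha* because their shares of paired enzymes also separated the plates of the genotypes. The *Ldha* window lies in an intron of a longer Gencode M21 model of the gene; the others lie just upstream of their gene models. Capitals mark the letters ACGTG on either strand, the core of hypoxia response elements and part of the E-box CACGTG, and overlapping matches on both strands were counted as 1 place.
Slc16a4 (chr3:107290980-107291229, plus strand): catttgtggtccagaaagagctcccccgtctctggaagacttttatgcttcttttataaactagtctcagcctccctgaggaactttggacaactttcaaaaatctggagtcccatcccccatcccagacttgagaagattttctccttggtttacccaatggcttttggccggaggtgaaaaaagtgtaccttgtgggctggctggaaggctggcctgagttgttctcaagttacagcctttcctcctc
Slc16a1 (chr3:104638414-104638663, plus strand): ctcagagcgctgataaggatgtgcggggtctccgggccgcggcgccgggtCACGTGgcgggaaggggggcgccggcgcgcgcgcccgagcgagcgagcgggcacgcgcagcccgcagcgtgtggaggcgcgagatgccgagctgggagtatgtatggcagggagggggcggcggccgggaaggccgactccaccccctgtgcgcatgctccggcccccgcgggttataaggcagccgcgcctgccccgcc
Hk2 (chr6:82774455-82774704, minus strand): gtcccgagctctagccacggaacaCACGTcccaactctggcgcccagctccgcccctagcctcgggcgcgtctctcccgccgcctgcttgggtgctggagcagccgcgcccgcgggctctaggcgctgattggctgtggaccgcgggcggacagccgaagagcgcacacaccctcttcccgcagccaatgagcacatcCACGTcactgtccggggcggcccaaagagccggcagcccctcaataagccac
Ldha, first start site (chr7:46845554-46845803, plus strand): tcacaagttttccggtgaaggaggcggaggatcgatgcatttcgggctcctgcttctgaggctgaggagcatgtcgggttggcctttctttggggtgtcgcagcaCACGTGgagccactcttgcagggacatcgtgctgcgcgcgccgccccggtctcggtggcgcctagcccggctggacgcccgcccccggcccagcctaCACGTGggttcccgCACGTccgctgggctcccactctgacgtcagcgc
The *Slc16a4* window held 2 CpG dinucleotides and no match. The windows of *Slc16a1*, *Hk2* and the first start site of *Ldha* held 37, 25 and 25 CpG dinucleotides, with 1, 2 and 3 places, respectively. That of the second start site of *Ldha* held 9 CpG dinucleotides and no match. For comparison, the median over 32851 promoters was 6 CpG dinucleotides, and 16.6% of them held a match, or 25.5% of the 5896 promoters with at least 20 CpG dinucleotides. *Slc16a3* (2 places), *Slc2a1* and 1 of the 2 start sites of *Pkm* also held matches. The letters were not in the windows of *Hk1*, *Ldhb* and *Pdk1*.

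Total counts per cell ranged from 1443 to 5178221, and plate sums from 108357282 to 188636940. Plate 1 of each genotype held more genes per cell (medians of 10198 in CA-ERBB2 and 8679 in Control cells) than the other plates (1742 to 2954). Wells A12 to D12, pooled over the plates of a genotype, stood apart. Their medians were 15673 and 15538 genes per cell in CA-ERBB2 and Control cells, against 3269 and 3233 in the other wells. *Erbb2* had a log2 fold change of 2.94 (SE 0.76), with no overlap between the plates of the genotypes. All 13 markers of pillar and Deiters cells were detected, with *Sox2* in 26.0% of CA-ERBB2 and 27.7% of Control cells and *Fgfr3* in 34.5% and 27.1%. The mesenchymal marker *Col1a2* had counts in 70.6% of all cells. The summed level of the 3 erythroid markers was 21.6 to 551 CPM on CA-ERBB2 plates and 2623 to 4899 CPM on Control plates. That of the 5 markers of the greater epithelial ridge was 2084 to 2494 and 3018 to 4686 CPM. The part of the latter cells in the differences between genotypes was not tested.

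*Slc16a4* was the gene of the 10 with the largest difference between genotypes. Levels are given as CPM, the counts relative to the plate sum after TMM scaling. *Slc16a4* was at 16.4, 35.5 and 347 CPM on CA-ERBB2 plates 1, 2 and 3, and at 9.37, 3.89 and 1.50 CPM on Control plates 1, 2 and 3. The plates of the genotypes did not overlap, and CA-ERBB2 plate 3 was far above the rest. Means over plates (± SD, n = 3) were 133 ± 186 CPM for CA-ERBB2 and 4.92 ± 4.03 CPM for Control. The log2 fold change was 4.76 (SE 1.22), the 228th highest of the 21416 genes tested. Without CA-ERBB2 plate 3 it was 2.43, and with plates of the same number taken as blocks (the replicate block) it was 3.61 (SE 1.49). Without wells A12 to D12 it was 5.11, and *Slc16a4* then had no count in the 55 cells of Control plate 3, so that shares of cells up to 5.45% remain possible.

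**Figure D1:**
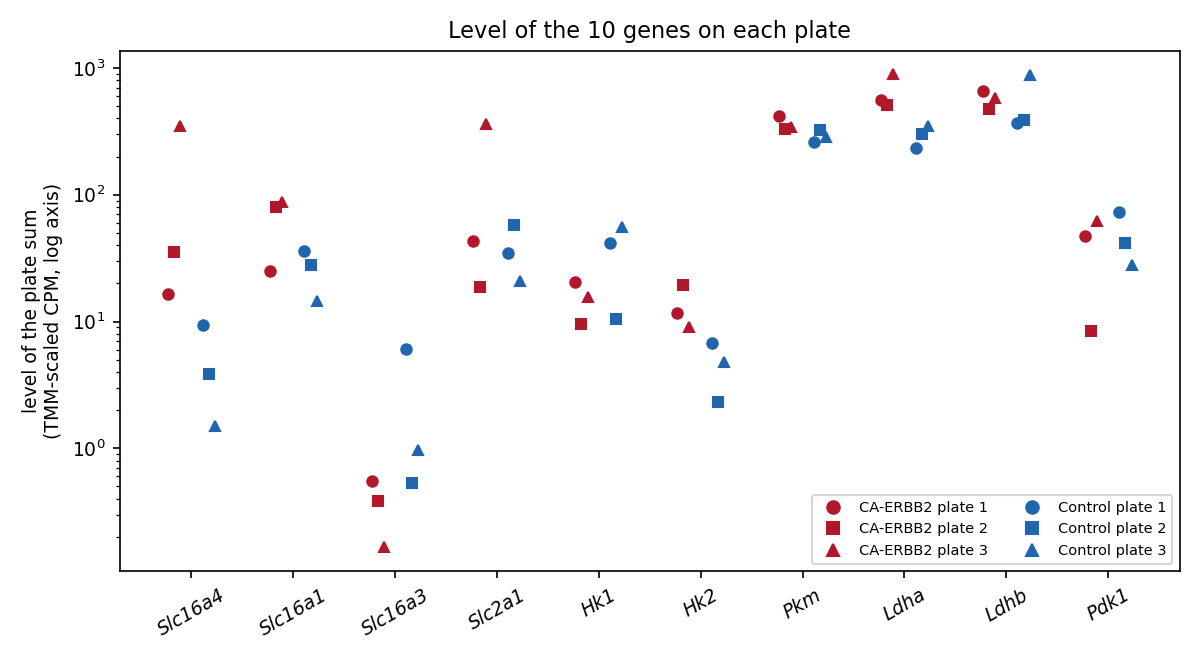
Level of each of the 10 genes on each plate, as TMM-scaled CPM on a log axis; red symbols are CA-ERBB2 plates, blue symbols Control plates, and the symbol shape gives the plate number. The CA-ERBB2 plates of Slc16a4 span 16.4 to 347 CPM, all above the Control plates at 1.50 to 9.37 CPM, and the Ldhb plates of both genotypes lie between 368 and 878 CPM.

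*Slc16a1*, the widely expressed transporter, was at 25.1, 79.7 and 86.8 CPM on the CA-ERBB2 plates and at 35.9, 28.0 and 14.5 CPM on the Control plates. CA-ERBB2 plates 2 and 3 were above every Control plate, whereas plate 1 lay within their range. The log2 fold change was 1.29 (SE 0.66). On Control plate 3, a single cell held 89.0% of the counts of *Slc16a1*.

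*Slc16a3*, the transporter of glycolytic cells, was scarce in both genotypes, at 0.556, 0.383 and 0.166 CPM on the CA-ERBB2 plates and 6.08, 0.528 and 0.973 CPM on the Control plates. The log2 fold change of -2.77 (SE 1.60) rested on Control plate 1, where 1 cell held 76.1% of the counts, and without this plate it was -1.03. The groups overlapped.

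Taking counts per kilobase of exon, *Slc16a4* made up 42.2, 33.6 and 82.0% of the summed counts of the transporters *Slc16a4*, *Slc16a1* and *Slc16a3* on CA-ERBB2 plates 1, 2 and 3. On Control plates its share was 20.7, 13.5 and 10.05%. The means were 52.6 ± 25.8% and 14.7 ± 5.43% (SD, n = 3 plates), without overlap. *Slc16a1* was the leading transporter on all 3 Control plates (69.5, 85.2 and 85.2%) and on CA-ERBB2 plates 1 and 2 (56.7 and 66.2%), but held 18.0% on CA-ERBB2 plate 3. After removal of the cell with most counts of each gene on each plate, the *Slc16a4* shares were 55.0 ± 26.5% and 15.2 ± 7.38% (SD, n = 3 plates).

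Detection was examined in single cells. At least 1 count of *Slc16a4* was found in 34, 17 and 19 of 59 cells on CA-ERBB2 plates 1, 2 and 3, and in 17, 6 and 2 of 59 cells on the Control plates, in total in 70 and 25 cells. The shares were 39.5 ± 15.7% and 14.1 ± 13.2% (SD, n = 3 plates), and CA-ERBB2 plate 2 and Control plate 1 had the same share. Thinning to a depth of 100000 counts dropped shallower cells (2 of CA-ERBB2 and 33 of Control). *Slc16a4* was then found in 58 of 175 and 21 of 144 cells, and the plates no longer overlapped (33.1 ± 8.09% and 13.5 ± 10.9%, SD, n = 3 plates). The gap was narrow, with CA-ERBB2 plate 2 at 27.6% and Control plate 1 at 25.4%. Levels of 100 CPM or more were reached in 3, 5 and 16 cells of the CA-ERBB2 plates and in 2, 0 and 0 of 59 cells of the Control plates. Shares up to 5.08% are possible where 0 of 59 cells were found. In wells A12 to D12, *Slc16a4* was found in 12 of 12 CA-ERBB2 and 9 of 12 Control cells, and in the other wells in 58 and 16 of 165 cells.

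*Slc16a1* had counts in 52 CA-ERBB2 and 41 Control cells, and in 44 of 175 and 35 of 144 after thinning. *Slc16a3* had counts in 15 and 17 cells, and in 5 of 175 and 9 of 144 after thinning. Both transporters *Slc16a4* and *Slc16a1* were found together in 34 CA-ERBB2 cells, *Slc16a4* alone in 36 and *Slc16a1* alone in 18. In Control cells these numbers were 16, 9 and 25.

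**Figure D2:**
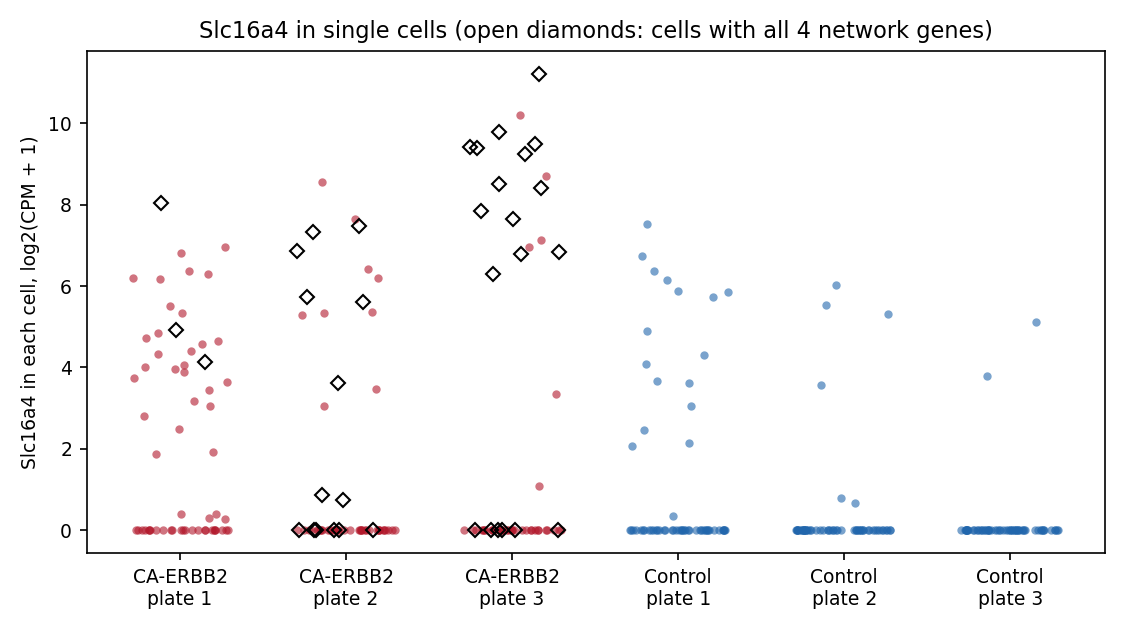
Slc16a4 in each cell as log2(CPM + 1), by plate; red points are CA-ERBB2 cells, blue points Control cells, and open diamonds the 36 CA-ERBB2 cells with all 4 of Spp1, Timp1, Mmp9 and Dmp1 at 100 CPM or more. Cells at 100 CPM or more of Slc16a4 number 16 on CA-ERBB2 plate 3 and 2 on Control plate 1.

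Levels were also compared between CA-ERBB2 cells with and without high levels of *Spp1*, *Timp1*, *Mmp9* and *Dmp1*, genes of secreted matrix and matrix-modifying proteins, together called network genes here. All 4 genes reached 100 CPM or more in 36 CA-ERBB2 cells (3, 14 and 19 on plates 1, 2 and 3) and in 0 Control cells, where shares up to 1.69% are possible. *Slc16a4* was detected in 24 of these 36 cells (66.7%) and in 46 of the 141 other CA-ERBB2 cells (32.6%). By plate, it was detected in 3 of 3, 8 of 14 and 13 of 19 of these cells, and in 31 of 56, 9 of 45 and 6 of 40 of the other CA-ERBB2 cells. Its mean over cells was 229 CPM in the former, 25.6 CPM in the latter and 5.19 CPM in Control cells. The 36 cells, with a median of 3198 genes detected against 3853 in the other CA-ERBB2 cells, held 76.3% of all *Slc16a4* counts of CA-ERBB2 plates. The means and this share pool cells over plates. Most counts came from plate 3, with 4096, 3885 and 31405 counts of *Slc16a4* on CA-ERBB2 plates 1, 2 and 3.

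These cells, 36 beside 141 other CA-ERBB2 cells, held 58.5% of the *Slc16a1* counts of the CA-ERBB2 plates. Their shares were 25.01% for *Hk2*, 24.0% for *Slc16a3*, 19.2% for *Ldha*, 14.8% for *Hk1* and 13.7% for *Pkm*. They were 9.04% for *Ldhb*, 5.68% for *Pdk1* and 3.74% for *Slc2a1*. The *Slc2a1* share rested on few cells, since 3 cells of CA-ERBB2 plate 3 held 96.9% of its counts there. *Slc2a1* was detected in 13 of the 36 cells and in 58 of the 141 others. When the 36 cells were left out, the log2 fold change of *Slc16a4* was 3.26 (SE 1.09) and that of *Slc16a1* 0.12 (SE 0.71). The *Ldha* value was 1.25 (SE 0.49) without them. *Slc16a4* was also detected in 55 of 82 CA-ERBB2 cells with *Erbb2* counts and in 15 of 95 without. The former had a median of 9444.5 genes detected and the latter 1829, and the part of this depth in the difference was not tested.

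**Figure D3:**
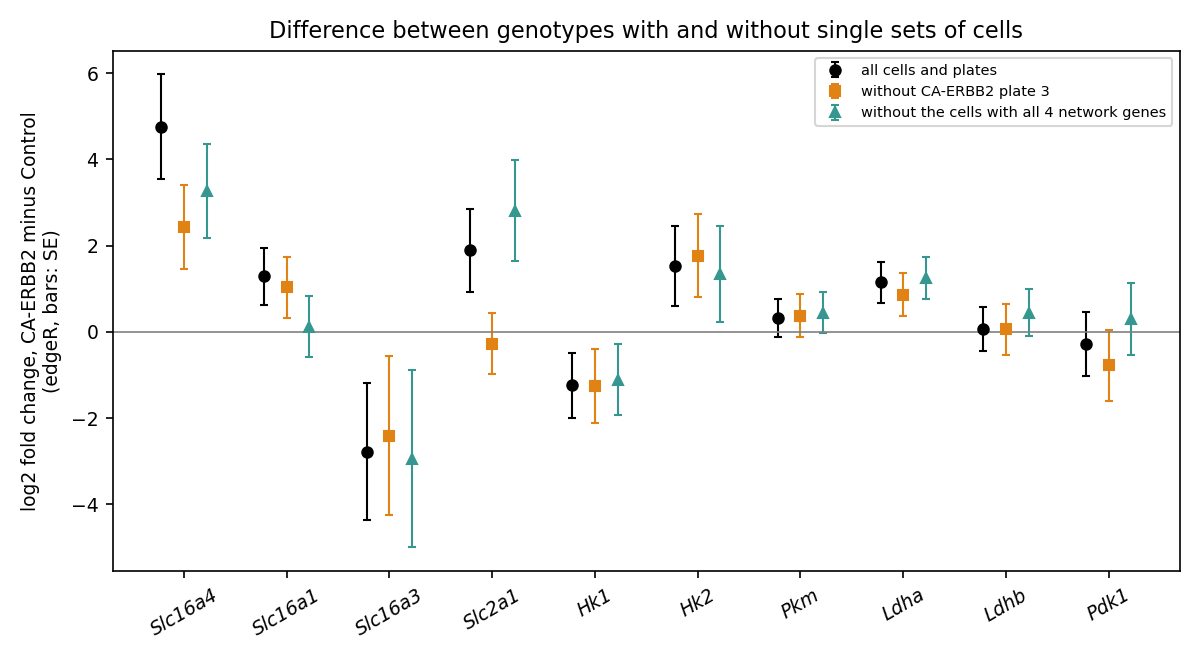
Log2 fold change (CA-ERBB2 minus Control) of the 10 genes from edgeR with bars of 1 SE, for all cells and plates (circles), without CA-ERBB2 plate 3 (squares) and without the 36 cells with all 4 network genes (triangles). Slc16a4 stays above 2 in each, Slc16a1 comes to 0.12 without the 36 cells, and Slc2a1 changes sign without CA-ERBB2 plate 3.

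Across all CA-ERBB2 cells, Pearson's r of log2(CPM + 1) with *Slc16a4*, after subtraction of plate means, was highest for *Ryk* (0.59), *Mettl5* (0.58), *Srp9* (0.57), *Psmd11* (0.56) and *Cct3* (0.56) among 15640 genes. Among the other transporters and enzymes it ranged from 0.16 for *Slc2a1* to 0.36 for *Slc16a1* (*Slc16a3*, found in too few cells, was left out). It was 0.50 for *Dmp1*, 0.44 for *Timp1*, 0.42 for *Mmp9* and 0.41 for *Spp1*. These cells share plates and differ in depth, and the values are descriptions.

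*Slc2a1*, the main glucose transporter of many tissues, was at 43.5, 18.8 and 360 CPM on the CA-ERBB2 plates and at 34.5, 58.2 and 20.9 CPM on the Control plates. CA-ERBB2 plate 3 was high, and 1 of its cells held 66.7% of its *Slc2a1* counts. The log2 fold change was 1.89 (SE 0.96) with this plate and -0.28 (SE 0.71) without it. Counts were found in 71 CA-ERBB2 and 53 Control cells, with 45 of the former on CA-ERBB2 plate 1, and after thinning in 56 of 175 and 42 of 144. The antisense gene *Gm12868* overlaps an exon of *Slc2a1* and had 2459 counts against 63166.

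*Hk1*, the hexokinase of most resting tissues, was at 20.5, 9.64 and 15.5 CPM on the CA-ERBB2 plates and at 41.3, 10.5 and 56.1 CPM on the Control plates. The groups overlapped, with a log2 fold change of -1.24 (SE 0.75), and 1 cell held 75.1% of the counts of Control plate 3. *Hk2*, the hexokinase often induced in proliferating and glycolytic cells, was at 11.7, 19.3 and 9.0 CPM on the CA-ERBB2 plates and at 6.75, 2.33 and 4.78 CPM on the Control plates. These did not overlap under TMM scaling but overlapped when plates were scaled by their totals, and the log2 fold change was 1.53 (SE 0.93). *Hk1os*, antisense to *Hk1*, had 3068 counts against 25472.

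The balance of the hexokinases does not depend on the scaling of plates. Per kilobase of exon, *Hk2* made up 44.9, 74.1 and 45.3% of *Hk1* plus *Hk2* counts on the CA-ERBB2 plates and 19.0, 24.0 and 10.9% on the Control plates. Without the cell with most counts of each gene on each plate, the means were 57.9 ± 18.0% and 24.2 ± 4.42% (SD, n = 3 plates), still without overlap. *Hk2* was detected in 66 CA-ERBB2 and 46 Control cells, and in 40 of 175 and 26 of 144 after thinning. The difference in mean detection over plates, 11.3 percentage points before thinning, was -5.65 without CA-ERBB2 plate 1. *Hk1* was detected in 61 and 64 cells, and in 48 of 175 and 52 of 144 after thinning.

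*Pkm*, counted without distinction of its splice forms, was at 417, 329 and 342 CPM on the CA-ERBB2 plates and at 263, 324 and 285 CPM on the Control plates. The log2 fold change was 0.32 (SE 0.43), and the plates overlapped when scaled by their totals. *Pdk1*, which restrains the entry of pyruvate into mitochondria, was at 46.9, 8.45 and 61.9 CPM on the CA-ERBB2 plates and at 72.4, 42.0 and 28.0 CPM on the Control plates. Its groups overlapped, with a log2 fold change of -0.28 (SE 0.75).

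*Ldha* was at 557, 508 and 889 CPM on the CA-ERBB2 plates and at 235, 299 and 346 CPM on the Control plates. The genotypes did not overlap under either scaling, with CA-ERBB2 plates higher and means of 651 ± 207 and 293 ± 55.9 CPM (SD, n = 3 plates). The log2 fold change was 1.15 (SE 0.47), 0.84 when plates were scaled by their totals, and 0.74 (SE 0.68) after thinning. *Ldha* was detected in 119 CA-ERBB2 and 99 Control cells, and in 115 of 175 and 96 of 144 after thinning. The thinned shares were 65.6 ± 24.2% and 64.8 ± 24.5% (SD, n = 3 plates), with overlap. *Ldhb* was at 658, 475 and 583 CPM on the CA-ERBB2 plates and at 368, 388 and 878 CPM on the Control plates. Control plate 3 was the highest of the 6, the groups overlapped, and the log2 fold change was 0.07 (SE 0.51).

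*Ldha* made up 45.8, 51.6 and 60.4% of the counts of *Ldha* plus *Ldhb* on the CA-ERBB2 plates and 39.0, 43.5 and 28.3% on the Control plates. The means were 52.6 ± 7.32% and 36.9 ± 7.82% (SD, n = 3 plates), with no overlap. Without the 36 cells with all 4 network genes the difference in means was 11.7 percentage points in place of 15.7. Per kilobase of exon, *Ldha* held 34.7 ± 6.72% and 21.9 ± 5.62% (SD, n = 3 plates). Among cells with at least 10 counts of the pair, pooled over plates, the median share of *Ldha* was 51.9% over 133 CA-ERBB2 cells and 33.8% over 119 Control cells. Shares over 90% were found in 30 CA-ERBB2 and 12 Control cells, and shares under 10% in 17 and 31 cells. Cells of a plate are not replicates. By plate, the mean over cells of the share per cell was 46.6, 58.4 and 58.9% on CA-ERBB2 plates 1, 2 and 3. On Control plates 1, 2 and 3 it was 45.4, 41.9 and 27.1%, so the plates numbered 1 were close. The pseudogene *Ldhb-ps* had 21276 counts, 4.17% of those of *Ldhb*, and adding the counts of annotated pseudogenes left the difference at 15.5 percentage points.

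**Figure D4:**
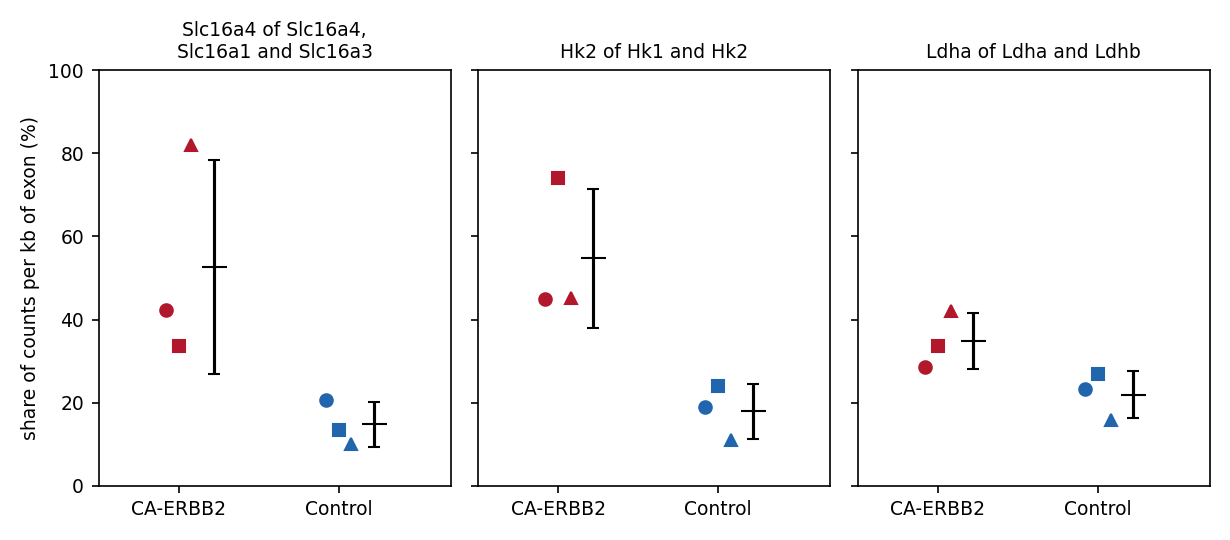
Share of the named gene in counts per kilobase of exon on each plate (points; circle, square and triangle are plates 1, 2 and 3) with mean and SD (black bars, n = 3 plates). In each panel the 3 CA-ERBB2 plates lie above the 3 Control plates, with means of 52.6 and 14.7% for Slc16a4, 54.8 and 18.0% for Hk2, and 34.7 and 21.9% for Ldha.

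Of the 10 genes, 4 (*Slc16a4*, *Hk2*, *Pkm* and *Ldha*) had each CA-ERBB2 plate higher than each Control plate under TMM scaling, and 0 had them all below. Over the 21416 genes tested, 4.2% lay above and 4.88% below. When plates were scaled by their totals, 2 of the 10 genes (*Slc16a4* and *Ldha*) lay above and 0 below, beside 2.78% and 5.11% of all genes. The median log2 fold change was 0.74 over the 10 genes and -0.02 over all genes tested, and TMM scaling raised the median of all genes by 0.25. Taken per kilobase of exon, mean levels on the CA-ERBB2 plates ran in the order *Ldhb* (364 CPM per kilobase), *Ldha* (197), *Pkm* (72.6), *Slc2a1* (40.1), *Slc16a4* (34.3), *Slc16a1* (14.4), *Pdk1* (5.02), *Hk2* (2.23), *Hk1* (1.78) and *Slc16a3* (0.0693). On the Control plates the order was *Ldhb* (347 CPM per kilobase), *Ldha* (88.7), *Pkm* (58.1), *Slc2a1* (10.8), *Pdk1* (6.10), *Slc16a1* (5.91), *Hk1* (4.21), *Slc16a4* (1.27), *Hk2* (0.774) and *Slc16a3* (0.476). In both genotypes the plates of *Ldhb* lay above those of *Ldha* and the latter above those of *Pkm*. Without overlap were also *Hk1* and *Slc16a3* in CA-ERBB2 and *Pkm* and *Slc2a1* in Control, whereas the plates of all other neighbours in these orders overlapped. The orders depend on the lengths used, which joined all annotated exons of a gene. Without division by length, mean levels on the CA-ERBB2 plates were 651 CPM for *Ldha* and 572 CPM for *Ldhb*. They were 15.2 CPM for *Hk1* and 13.3 CPM for *Hk2*. On the Control plates *Ldhb* (545 CPM) stayed above *Ldha* (293 CPM). Detection was highest on plate 1 of each genotype: *Pkm*, for example, was found in 57 and 55 of 59 cells on plate 1 of CA-ERBB2 and Control, and in 22 to 33 cells on the other plates.

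The genes around these 10 were tested with edgeR's quasi-likelihood test on the plate sums, in 6 lists of other pathway genes (78 genes, 73 of them tested). None was called at an adjusted p under 0.05 in either direction, beside 1 of 21416 genes in all (0.00467%). With 1 call in all, at most 1 of *Spp1*, *Timp1* and *Dmp1* was called, at log2 fold changes of 7.24, 7.20 and 7.19. A missing call therefore does not show that a pathway gene was unchanged. At an unadjusted p under 0.05, edgeR had 2 of the 73 higher in CA-ERBB2 cells and 0 lower, and 2.77% of all genes tested higher and 2.39% lower. DESeq2 called 0 of the 68 of these genes to which it gave an adjusted p, beside 1.25% of all genes with one. At an unadjusted p under 0.05 it had 9 of 70, beside 8.57% of all genes with a p. The median log2 fold change of the 73 genes was -0.11, with 32 above and 41 below 0. Under TMM scaling, 1 of the 73 had all CA-ERBB2 plates above all Control plates and 9 had them all below. Of all genes tested, 4.2% lay above and 4.88% below.

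In the SLC16 family and its chaperones, 12 of 13 genes were tested, 5 with a log2 fold change above 0. *Slc16a7*, another proton-coupled transporter of the family, was at 7.44, 20.5 and 51.2 CPM on the CA-ERBB2 plates and 8.78, 3.99 and 3.00 CPM on the Control plates. Its log2 fold change was 2.33 (SE 0.93, edgeR adjusted p = 0.911), -0.16 without the 36 cells with all 4 network genes, and 1.44 without CA-ERBB2 plate 3. *Slc16a5* was the gene of this list with plates that did not overlap, at 0.215 ± 0.181 and 2.24 ± 2.27 CPM (SD, n = 3 plates), a log2 fold change of -3.37 (SE 1.78, edgeR adjusted p = 0.911), or -2.14 without Control plate 2. The chaperone *Bsg* was abundant in both genotypes, at 1022 ± 462 and 1099 ± 217 CPM (SD, n = 3 plates). *Emb* was at 201 ± 100.1 and 104 ± 36.0 CPM (SD, n = 3 plates), with a log2 fold change of 0.95 (SE 0.54, edgeR adjusted p = 0.913). It was 0.26 (SE 0.57) without the 36 cells with all 4 network genes, 0.48 without CA-ERBB2 plate 3 and 0.58 when plates were scaled by their totals.

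Among glucose transporters, 8 of 10 were tested, with a median log2 fold change of -1.47. Under TMM scaling, 3 lay below the Control plates without overlap, beside 4.88% of all genes tested. These were *Slc2a8* (-2.14, SE 1.13), *Slc2a4* (-1.61, SE 1.51), the insulin-responsive transporter, and *Slc2a12* (-1.42, SE 0.99), with edgeR adjusted p of 0.911, 0.936 and 0.918. Mean levels on CA-ERBB2 and Control plates were 6.84 and 30.1 CPM for *Slc2a8*, 0.774 and 2.37 CPM for *Slc2a4*, and 4.23 and 11.3 CPM for *Slc2a12*. The plates of *Slc2a8* overlapped when scaled by their totals. Its value was -1.004 (SE 1.11) without the 9 cells with 1000 CPM or more of haemoglobin transcripts (*Hba-a1* plus *Hbb-bs*), and -0.94 without Control plate 2. That of *Slc2a12* was -2.27 without CA-ERBB2 plate 1, and that of *Slc2a4* -1.04 without the 36 cells with all 4 network genes.

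Among 23 further glycolysis enzymes, 21 were tested, 6 with a log2 fold change above 0 and 15 below (median -0.36). *Aldoa*, an aldolase, was at 373, 635 and 730 CPM on the CA-ERBB2 plates and at 243, 371 and 274 CPM on the Control plates. It was the gene of this list with all CA-ERBB2 plates above, with a log2 fold change of 0.97 (SE 0.48, edgeR adjusted p = 0.911), or 0.59 when plates were scaled by their totals. The CA-ERBB2 plates lay below for *Bpgm*, the bisphosphoglycerate mutase of red cells (-1.18, SE 0.62), and the triosephosphate isomerase gene *Tpi1* (-0.44, SE 0.45), with edgeR adjusted p of 0.911 and 0.945. The plates of *Bpgm* and *Tpi1* overlapped when scaled by their totals. Without the 9 cells rich in haemoglobin transcripts, the value of *Bpgm* was -0.26 (SE 0.75) and that of *Ldha* 1.13.

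All 5 regulators of phosphofructokinase were tested, with a median of 0.65. *Pfkfb3*, which makes an activator of the enzyme, was at 7.62, 65.8 and 1.69 CPM on the CA-ERBB2 plates and 5.80, 2.93 and 1.54 CPM on the Control plates. Its log2 fold change of 2.87 (SE 1.27, edgeR adjusted p = 0.911) was 0.45 without CA-ERBB2 plate 2 and 1.45 with the replicate block. All 12 genes of pyruvate entry to mitochondria were tested, 8 above 0 (median 0.45), and the plates of every one overlapped. All 15 genes of the hypoxia response were tested, with a median of -0.10. Its non-overlapping genes, *Arnt* (-1.60, SE 0.77) and the histone demethylase gene *Kdm3a* (-1.19, SE 0.59), were lower on the CA-ERBB2 plates, each with an edgeR adjusted p of 0.911. The plates of *Arnt* overlapped when scaled by their totals, and *Kdm3a* was at -0.76 without the 36 cells with all 4 network genes.

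**Figure D5:**
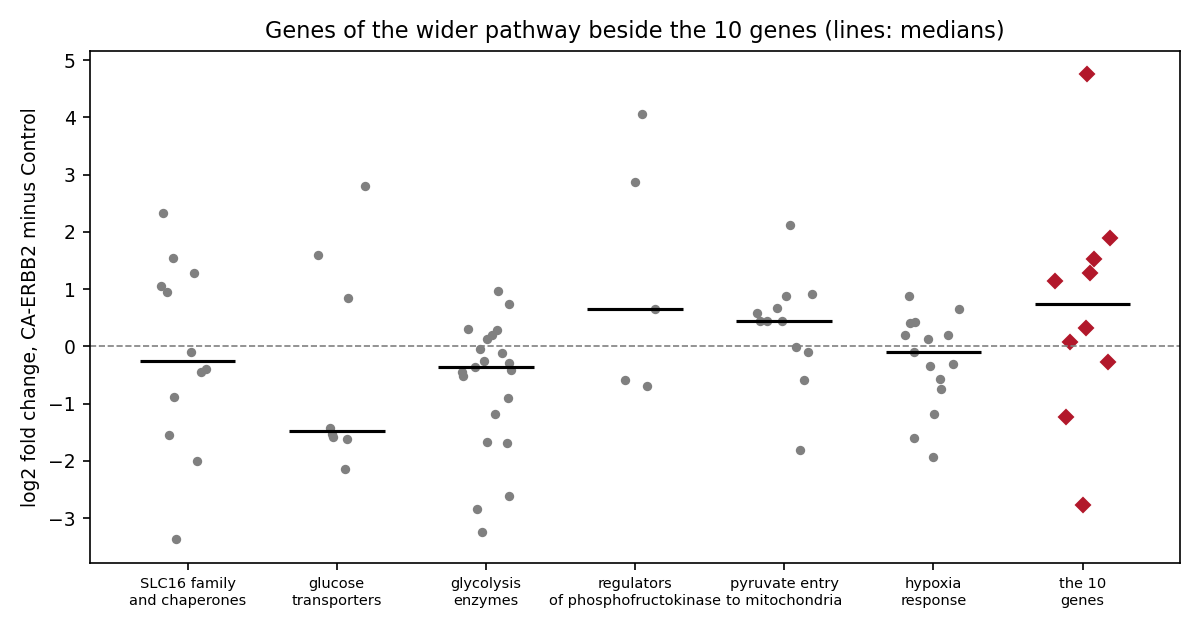
Log2 fold change (CA-ERBB2 minus Control) of the 73 tested genes in 6 pathway lists (grey) and of the 10 genes (red diamonds), with lines at medians. The medians of the lists run from -1.47 for glucose transporters to 0.65 for the regulators of phosphofructokinase. Slc16a4, known beforehand to be higher in CA-ERBB2 cells, lies at 4.76, above every grey point.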

How the data were processed

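SMART-Seq Single PLUS libraries of sorted cells (3 plates of 59 per genotype) were analysed. The authors mapped reads to GRCm38 with STAR 2.7.6a and the Gencode M25 annotation, counted them on exons by gene and strand with featureCounts of Subread 2.0.1, and deposited whole-number counts for 55367 genes per cell without normalization. The library protocol describes no molecular identifiers, although the study's text speaks of UMI counts. The values were used as deposited, and limits given with a count of 0 (3 cells) cover counting error only. Reads of a gene and a near-identical copy may have been split or dropped.

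Counts were summed per plate and fitted with edgeR 4.0.16 in R 4.3.3 (TMM factors of 0.688 to 1.33, filterByExpr, quasi-likelihood, no block), leaving 21416 genes. The threshold for a call was 0.05 after Benjamini-Hochberg adjustment over all genes tested. The SE is the log2 fold change divided by the square root of F. The same step was tested on simulated data. Exon lengths and positions were taken from Gencode M21 (GRCm38), and promoters from RefSeq (GRCm38.p6), which matched 10 of 10 genes. Cells were thinned to 100000 counts by random draws without replacement.

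The genes, lists and most alternatives were chosen with earlier results of these data known. The genes named are the 10 genes, those called in each list or otherwise up to 3 per list with the largest change and plates that did not overlap, the 5 most like *Slc16a4*, *Erbb2*, the 4 network genes, and overlapping genes and pseudogenes. *Slc16a7*, *Pfkfb3*, *Bsg* and *Emb* were added after their values were seen. Alternatives were DESeq2 1.42.0, limma 3.58.1 on means over cells of log2(CPM + 1), no filter, the replicate block, other sets of cells, thinning and each plate left out. No doublet caller was run, since the protocol describes the sorting of single cells. Whether wells A12 to D12, with many more genes than the other wells, each held 1 cell was not tested. A gene that this rule names is not reported here.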

Additional observations from a re-analysis of the deposited data

How the results depend on the processing

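The pathway genes were called 0 times under all 16 alternatives. Over all genes, 1 gene was called by edgeR in the fit reported, 285 of 39201 without the filter, 235 by DESeq2, 2 without CA-ERBB2 plate 1, and 0 by limma, with thinned cells, without the cells with all 4 network genes and without Control plate 1 or 3. Of 340 recomputed values, 328 stayed within 1 SD between plates of the value reported, or equalled it. For detection this SD was wide, and values of opposite sign also counted as within it. The *Hk1* difference in mean detection, for example, was -1.69 percentage points with all plates. It was -20.9 without CA-ERBB2 plate 1 and 14.1 without Control plate 1. With every cell weighted equally in limma, on the log2(CPM + 1) scale, the differences were 1.53 for *Slc16a4*, 0.29 for *Slc16a1*, -0.16 for *Slc16a3*, -0.28 for *Hk1* and 0.54 for *Hk2*. Without the cells with all 4 network genes, *Slc16a1* was at 0.12 and *Pdk1* at 0.30 in place of -0.28. *Pkm* was at 0.10 when plates were scaled by their totals and *Ldha* at 0.74 after thinning, and the cause was not tested. With 1 plate left out, the log2 fold change ranged from 2.43 to 5.62 for *Slc16a4*, from -3.26 to -1.03 for *Slc16a3*, from -0.28 to 2.43 for *Slc2a1*, from -0.15 to 0.62 for *Ldhb* and from -0.78 to 0.21 for *Pdk1*. With the replicate block, it was 3.61 for *Slc16a4* and 0.74 for *Slc2a1*, and 0 pathway genes were called. Same-numbered plates correlated at r = 0.24, 0.07 and 0.04 in their deviations from genotype means. They were not taken as pairs, although each plate correlated best with its own number. The paper describes independent FACS experiments and littermate Controls. The labels do not say whether plates of the same number came from the same experiment, so pairing remains possible. *Slc16a3* did not pass the filter after thinning. The *Slc16a4*, *Hk2* and *Ldha* shares kept their direction in every alternative run. Since their plates did not overlap, leaving out 1 plate could not change the direction. The shares were not recomputed on thinned cells. Scaling by plate totals, leaving out cells rich in haemoglobin transcripts or the cells with most counts of a gene, the shares per length and the detection level of 100 CPM were chosen after seeing the data. Detection was limited by the 35 cells under 100000 counts.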
